A study of Mus musculus with 12 samples.

Results

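The genes described are those for building ribosomes in the nucleolus, measured in hepatocytes of mice with and without a mammary tumour. They were taken from the deposited table of 15910 genes by name: symbols that begin with Utp, Nop, Rrp or Nol and a number, the RNA polymerase I subunits Polr1a to Polr1e, and Mphosph10, Imp3, Imp4, Fbl, Dkc1, Ncl, Npm1, Nolc1, Bop1, Wdr12, Pes1, Heatr1, Gar1 and Nhp2. The names gave 54 genes, and the name rule uses no measured value, although it was set with earlier results of these data known. By known role they are 5 RNA polymerase I subunits, 23 proteins of the small-subunit processome, 3 of the box C/D and 4 of the box H/ACA small nucleolar ribonucleoproteins, 3 nucleolar phosphoproteins, 3 subunits of the PeBoW complex, 9 other factors of the large subunit, 2 other nucleolar proteins (Nol7 and Nol8) and 2 that match by symbol alone. The last pair are Nol3, which encodes an apoptosis repressor, and Nol4l, and the ribosome label does not describe them.

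The animals were female Balb/c mice, 8 weeks old, injected orthotopically with 4T1 cells, which are a transplantable breast carcinoma line of the same strain, or with PBS. Dissociated hepatocytes were obtained after liver perfusion, from 3 mice of either treatment on day 4 and again on day 21, which makes 4 groups. No group carried a transgene or a deleted gene, and 1 tumour line was used, so the tumour groups stand for that line alone. Poly(A) RNA was sequenced, and values are gene counts divided by a size factor for each library, called normalized counts below. Within a group they follow the replicates: 1, 2 and 3 for tumour day 4, 4, 5 and 6 for PBS day 4, 7, 8b and 9a for tumour day 21, and 10a, 11a and 12b for PBS day 21.

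Ribosome assembly starts when RNA polymerase I transcribes the ribosomal RNA precursor in the nucleolus. The small-subunit processome, built around the U3 ribonucleoprotein, folds and cuts the part of the precursor that becomes the small subunit, while PeBoW and other factors mature the large one. Box C/D particles guide methylation of ribosomal RNA, and box H/ACA particles guide its conversion to pseudouridine. In liver these genes are known for their increase when hepatocytes prepare to grow, as after partial hepatectomy. Messenger RNA alone was measured, so the data say nothing on ribosomal RNA, ribosome number or protein.

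Recovered depth ran from 9375095 to 21809166 reads, and the 54 genes together took 1138.5 to 1575 reads in 1000000 (RPM). The 8 hepatocyte markers, among them albumin and transthyretin, summed to 107600 to 172000 RPM, so every library held RNA of the labelled cell type. At day 21 that sum was lower in every tumour library (107600 to 127200) than in every PBS library (133500 to 153100), and at day 4 the groups overlapped. Single markers were split at day 21: 4 of the 8 had a positive log2 fold change, and 0 were called. Albumin alone made up 7.82 to 9.56% of the reads in tumour libraries of that day and 9.80 to 12.5% in PBS libraries. The tumour day 21 libraries also held RNA of other cells. All 8 immature myeloid markers were called higher there, and their sum was 2379, 456 and 419 RPM against 0.229 to 0.556 in PBS mice of day 21, where Ms4a3, Chil3, Cebpe and Fcnb were at 0 reads. All 10 neutrophil markers (1355 to 6406 against 6.14 to 27.5 RPM) and all 9 cycling-cell markers (102.1 to 457.8 against 30.1 to 30.8) were called higher too. Replicate 7 had the most of each and stands apart. At day 4 none of these lists had a called gene. The neutrophil sum was nevertheless higher in each tumour mouse, at 122, 238.5 and 62.0 RPM against 22.3, 19.4 and 29.2 in PBS mice, and 9 of the 10 markers had a positive log2 fold change. The cycling-cell sums overlapped (23.8 to 55.0 against 24.95 to 38.05), and the immature myeloid sum was 0.367 to 12.7 in tumour mice against 0.213 to 0.917 in PBS mice. Tumour day 4 replicate 1 differed in another way: across 12619 genes its deviation from the mean of the libraries ran against gene length (Spearman correlation -0.377), PBS day 4 replicate 5 had -0.222, tumour day 21 replicate 7 had 0.208, and the other 9 libraries lay between -0.0658 and 0.146. In such bulk samples, fewer cells of a type and less RNA per cell cannot be told apart.

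The start regions of 4 genes with the larger differences are shown to let a reader compare them. Each is the stretch just before the RefSeq start of the gene on GRCm38.p6, 5′ to 3′ along the gene, and capitals mark the E-box CACGTG and the ETS core CCGGAAG on either strand. Mphosph10 is at chr7:64392239-64392486 on the minus strand, Nop58 at chr1:59684756-59685000, Nop2 at chr6:125131633-125131882 and Heatr1 at chr13:12395125-12395374 on the plus strand.
Mphosph10: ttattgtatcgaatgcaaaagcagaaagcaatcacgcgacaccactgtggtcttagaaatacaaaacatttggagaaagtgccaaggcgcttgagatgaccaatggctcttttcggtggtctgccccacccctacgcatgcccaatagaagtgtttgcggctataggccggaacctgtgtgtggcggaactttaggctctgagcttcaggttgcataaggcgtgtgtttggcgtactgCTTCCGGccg
Nop58: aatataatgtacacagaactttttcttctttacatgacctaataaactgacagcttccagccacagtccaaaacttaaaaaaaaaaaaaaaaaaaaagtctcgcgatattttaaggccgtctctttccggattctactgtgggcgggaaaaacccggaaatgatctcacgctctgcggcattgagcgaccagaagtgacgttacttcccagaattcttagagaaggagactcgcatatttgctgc
Nop2: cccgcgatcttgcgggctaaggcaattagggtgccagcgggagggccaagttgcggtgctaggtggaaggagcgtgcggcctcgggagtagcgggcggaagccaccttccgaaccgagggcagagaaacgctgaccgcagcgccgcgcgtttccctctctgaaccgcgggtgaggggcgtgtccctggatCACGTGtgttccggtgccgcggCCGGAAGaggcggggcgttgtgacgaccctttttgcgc
Heatr1: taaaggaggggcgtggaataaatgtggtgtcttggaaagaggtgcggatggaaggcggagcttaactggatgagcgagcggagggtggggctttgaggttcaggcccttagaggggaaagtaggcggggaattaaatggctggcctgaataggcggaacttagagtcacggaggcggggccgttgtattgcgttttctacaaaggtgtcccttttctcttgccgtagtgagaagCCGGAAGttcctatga
Mphosph10, Nop2 and Heatr1 hold the ETS core, at 12, 38 and 16 bases before the start, Nop2 also holds the E-box, and Nop58 holds neither. RefSeq windows of 300 bases, 250 before and 50 after a start, were at hand for 44 of the 54 genes (51 windows). The ETS core was in 17 of these 51 (33.3%) against 15.8% of the windows of all genes in the table and 8.86% of all windows. The E-box was in 9 (17.6%) against 9.46% and 7.15%. TATAAA was in 5 (9.8%) against 8.08%. Median G and C content was 57.3% in the members' windows and 59.7% in those of the table. These are matches of letters, with no measure of binding.

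Levels differed widely between the genes. Per kilobase of exon, the mean normalized count over the 12 libraries was 916 for Npm1, nucleophosmin, 637 for Nop10 of the box H/ACA particle, 475 for Nop53, 462 for Imp3 and 346 for Ncl, nucleolin. The catalytic subunit Polr1a stood at 40.4, Mphosph10 at 103, fibrillarin (Fbl) at 253, dyskerin (Dkc1) at 83.4 and Nop58 at 34.3. At the low end Utp14b, a retrotransposed copy of Utp14a known for its part in mouse spermatogenesis, had 7.5, Nol3 3.11 and Nol4l 1.58. These levels depend on the annotated exon length: Fbl and Nop58, which act together, had mean normalized counts of 302 and 328, over 1197 and 9539 exon bases. In all, 48 genes had a mean normalized count of at least 100, and 53 passed the minimum mean of 10 for testing. Nol3, at a mean of 9.89, was not tested, and Nol4l, at 10.3, passed through its values in tumour mice of day 21.

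**Figure D1:**
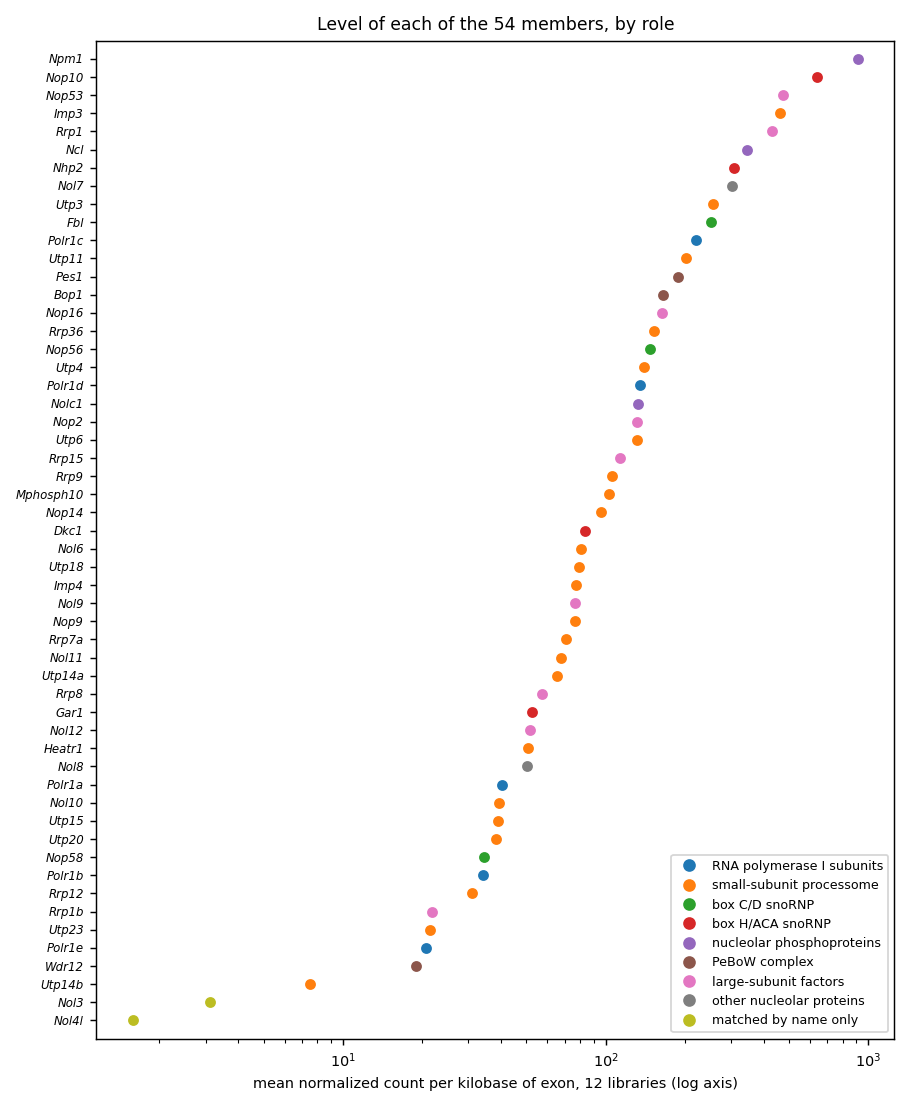
Mean normalized count per kilobase of exon over the 12 libraries (log axis) for each of the 54 genes, coloured by role. Npm1 is at 916 and Nol4l at 1.58, and members of a role are spread along the axis.

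Mice with a tumour were compared with PBS mice of day 4 for early differences in hepatocytes. The 53 tested genes lay mostly higher in tumour mice by a small amount, with 42 positive log2 fold changes where 45.5% of all 12631 tested genes were positive. Their median log2 fold change was 0.21, against -0.03 over all tested genes, and they ranged from -0.35 (Nol4l) to 1.05 (Mphosph10). None was called in limma at an adjusted p under 0.05, higher (0% of all tested genes) or lower (0%). At an unadjusted p under 0.05, 11 were higher and 0 lower, where 2.83% and 3.2% of all tested genes were. In 12 genes every tumour mouse lay above every PBS mouse (4.53% of all tested genes), and in 0 below (4.24%). Without tumour day 4 replicate 1, 36 were positive, the median was 0.16 and 9 had an unadjusted p under 0.05. Without PBS day 4 replicate 5, 42 were positive, the median was 0.19 and 7 had an unadjusted p under 0.05. Over all tested genes, 761 had an unadjusted p under 0.05 in either direction in the main fit. That count was 869 without tumour day 4 replicate 1 and 426 without PBS day 4 replicate 5. The neutrophil marker sum given above was higher in the tumour mice of this day as well, and its part in these values was not tested.

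Among the 23 processome genes 20 were positive (median 0.26) and 0 were called. Mphosph10 (ENSMUSG00000030521, chromosome 7, 64376527 to 64392268, minus strand) encodes a U3 ribonucleoprotein component that binds Imp3 and Imp4. It had 339.8, 314 and 291 normalized counts in tumour mice against 179.8, 151 and 129 in PBS mice. The groups stood well apart, with means of 315 ± 24.2 and 153 ± 25.6 (SD, n = 3 each). Its log2 fold change was 1.05 (SE 0.19, 95% interval 0.64 to 1.45), the smallest p of all tested genes, but the limma adjusted p was 0.776. DESeq2 on the recovered reads called it (log2 fold change 1.05, adjusted p = 0.0163), the sole member that it called, and edgeR called 0 genes. Over all tested genes DESeq2 called 1 higher and 2 lower. It gave an adjusted p for 8952 genes and limma for 12631, so the adjusted values rest on different gene sets. The partners of Mphosph10 had smaller values, 0.22 for Imp4 and -0.05 for Imp3. Utp18, a subunit of the UTP-B module in yeast, had a log2 fold change of 0.52, Nop14 0.38, Utp6 0.38, Utp4 0.30 and Utp11 0.26, and the groups did not overlap in these 5 or in Imp4. Heatr1, the counterpart of yeast Utp10, had 0.34, with 349, 452 and 399 normalized counts in tumour mice against 365, 265 and 318 in PBS mice. Thus 1 PBS mouse of day 4 lay within the range of the tumour mice. Nol6, the counterpart of yeast Utp22, had 413, 325 and 351 against 329, 498 and 422 and a log2 fold change of -0.18 (adjusted p = 0.893). It was 1 of 3 processome genes on the negative side, beside Utp14b (-0.11) and Imp3 (-0.05).

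All 3 box C/D genes were positive. Nop58 (ENSMUSG00000026020, chromosome 1, 59684971 to 59719044, plus strand), which pairs with Nop56 in the core of the particle, had 483, 448 and 323 normalized counts in tumour mice against 275, 224 and 237 in PBS mice. Every tumour mouse was above every PBS mouse, and the log2 fold change was 0.75 (SE 0.20; limma adjusted p = 0.776). For Nop56 (ENSMUSG00000027405, chromosome 2, 130274430 to 130279313, plus strand) the log2 fold change was 0.52, with 358, 307 and 328 in tumour mice against 299, 181 and 224 in PBS mice, again without overlap. Fbl (ENSMUSG00000046865, chromosome 7, 28169710 to 28179269, plus strand), the methyltransferase of the particle, had 370.3, 301 and 317 against 302, 305 and 249.5, with overlapping groups and a log2 fold change of 0.21 (adjusted p = 0.861). Of the 4 box H/ACA genes, 3 were positive and their groups overlapped. Dkc1 (ENSMUSG00000031403, chromosome X, 75095854 to 75109777, plus strand), the pseudouridine synthase, had 272, 233 and 273 in tumour mice against 248, 158 and 238 in PBS mice. Replicate 5 was low while the other PBS mice lay within the tumour range, and the log2 fold change was 0.30 (adjusted p = 0.85). Gar1 and Nhp2 had 0.20 and 0.08. Nop10 had 838, 718 and 679 against 747, 1074 and 664 and a log2 fold change of -0.13 (adjusted p = 0.932), with the same PBS mouse highest.

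Large-subunit genes were more mixed, with 6 of 9 positive (median 0.16). Nop2 (ENSMUSG00000038279, chromosome 6, 125131909 to 125144753, plus strand), a ribosomal RNA cytosine methyltransferase, had 536, 344 and 420.0 normalized counts in tumour mice against 318, 304 and 260.4 in PBS mice. The groups did not overlap, and the log2 fold change was 0.54 (SE 0.17; limma adjusted p = 0.815). Nol9, a polynucleotide kinase of the precursor RNA, had 0.42, Rrp8 0.26, Nol12 0.25, Nop16 0.16 and Rrp15 0.01. Nop53, which in yeast brings the RNA exosome to the large-subunit precursor, had 1902, 1077 and 1524 against 1489, 2016 and 1634 and a log2 fold change of -0.22 (adjusted p = 0.892). Its tumour mice spanned nearly the whole range of all 6. Rrp1b and Rrp1 had -0.21 and -0.05. In PeBoW, Wdr12 had 0.46 with no overlap of the groups, Pes1 0.18 and Bop1 0.06.

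Of the 5 RNA polymerase I subunits, 3 were positive. Polr1e (ENSMUSG00000028318, chromosome 4, 45018583 to 45036565, plus strand), the counterpart of the yeast subunit Rpa49, had 85.5, 88.4 and 70.2 normalized counts in tumour mice against 53.7, 49.6 and 56.6 in PBS mice, with no overlap. Its log2 fold change was 0.60 (SE 0.20; limma adjusted p = 0.815). Polr1a, the catalytic subunit, had 401, 314 and 415 against 423, 428 and 334 (-0.07, 95% interval -0.40 to 0.26), with 1 PBS mouse within the range of the tumour mice and the others just above it. The other subunits had 0.24 (Polr1b), 0.13 (Polr1c) and -0.08 (Polr1d), and the latter pair also serve RNA polymerase III. The abundant phosphoproteins had log2 fold changes near 0. Ncl (ENSMUSG00000026234, chromosome 1, 86344719 to 86359400, minus strand) had 3332, 2819 and 2638 against 3558, 2542 and 2505, a log2 fold change of 0.04 (95% interval -0.33 to 0.42). Npm1 (ENSMUSG00000057113, chromosome 11, 33152287 to 33163206, minus strand) had 2157, 1889.6 and 1716 against 2443, 2104 and 1588, a log2 fold change of -0.07 (-0.45 to 0.30). Nolc1, a chaperone of small nucleolar ribonucleoproteins, had 0.44, and Nol8 and Nol7 had 0.49 and 0.20. Nol4l was near the floor of the test at 5.09, 3.68 and 4.68 against 6.71, 4.51 and 6.97 (-0.35, adjusted p = 0.932).

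**Figure D2:**
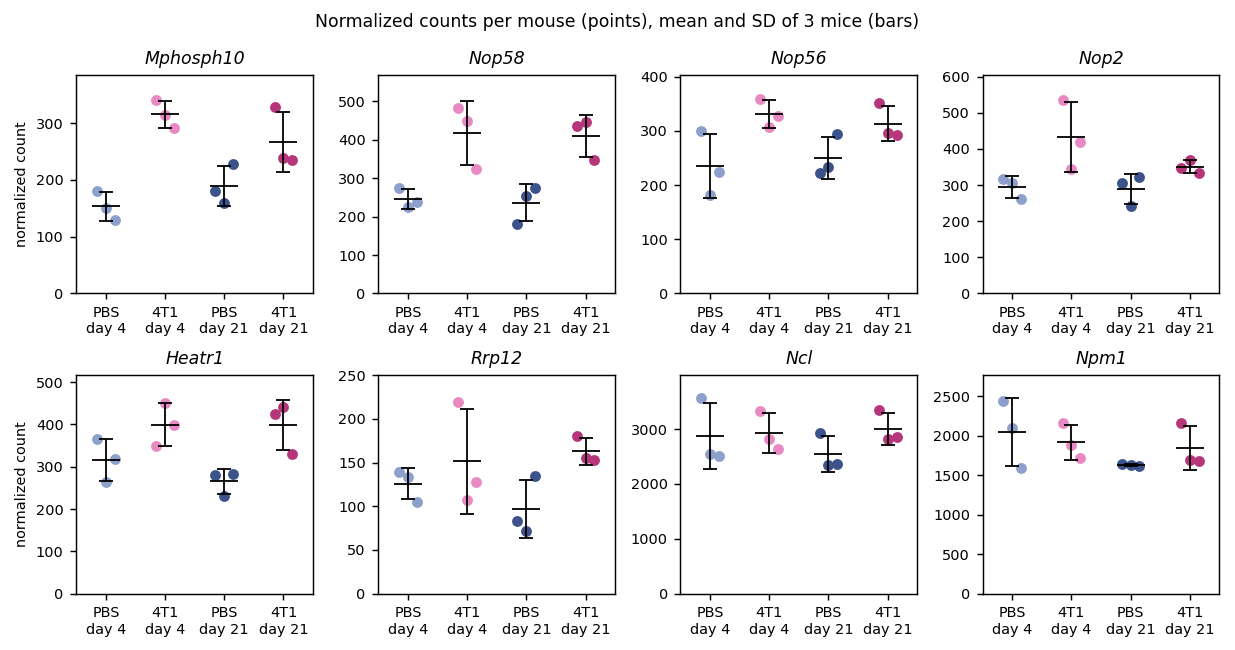
Normalized counts of 8 genes in each mouse (points), with the mean and SD of the 3 mice of a group (bars). The tumour mice of day 4 lie above their PBS mice for Mphosph10, Nop58, Nop56 and Nop2, while the groups overlap for Heatr1, Rrp12, Ncl and Npm1 at that day.

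At day 21 the comparison of tumour with PBS mice addresses the liver of animals with an established tumour. Nop58 was the single gene of the 53 called higher in limma (5.42% of all tested genes were called higher), and 0 were called lower (2.44%). In edgeR and DESeq2 Nop58 and Heatr1 were called higher and 0 lower. The share called is thus no greater than over all genes. Positive log2 fold changes numbered 37 of 53 against 51.9% of all tested genes, the median was 0.12 against 0.02, and the range ran from -0.30 (Nop53) to 0.86 (Utp14b). At an unadjusted p under 0.05, 8 were higher (13% of all tested genes) and 0 lower (9.94%). The groups did not overlap in 16 genes that were higher in tumour mice (17.2%) and 4 that were lower (15.4%). Without tumour day 21 replicate 7, the library with the most myeloid RNA, 35 were positive, the median was 0.14, 4 had an unadjusted p under 0.05 and 0 were called. Over all tested genes 1902 then had an unadjusted p under 0.05 in either direction, against 2902 in the main fit. Without that library 361 of all tested genes were called higher and 82 lower. The marker sums of myeloid and cycling cells given above were higher in all 3 tumour libraries of this day. That of hepatocytes was lower in them, though 4 of its 8 markers had a positive log2 fold change. The members' deviations from the mean of the 12 libraries also followed exon length: their Spearman correlation with it over the 53 genes was 0.321, 0.352 and 0.357 in tumour libraries and -0.0864, -0.333 and -0.0668 in PBS libraries. The 17 genes of at least 4000 exon bases had median deviations of 0.16, 0.11 and 0.04 against -0.10, -0.23 and -0.003 on the log2 scale, while the 8 genes under 1500 bases overlapped (-0.08, 0.01 and -0.04 against -0.04, -0.08 and -0.06). The part of these differences in the day 21 values was not tested.

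Nop58 had 437, 447 and 347 normalized counts in tumour mice against 181, 254 and 274 in PBS mice. All 3 tumour mice were above all 3 PBS mice, with means of 410.3 ± 55.4 and 237 ± 48.9 (SD, n = 3 each). The log2 fold change was 0.80 (SE 0.20, 95% interval 0.38 to 1.23; limma adjusted p = 0.0256). The call was lost without tumour day 21 replicate 7 (0.75, adjusted p = 0.1) or 8b (0.74, 0.0693), without PBS day 21 replicate 10a (0.62, 0.101) or 11a (0.87, 0.0556), and in a fit of the day 21 groups alone (adjusted p = 0.0576). Its partners had a log2 fold change of 0.33 (Nop56, 351, 296 and 292 against 222, 234 and 294) and 0.10 (Fbl, 336, 279 and 309 against 294, 277 and 287), with overlapping groups. Nop56 shares exon bases with Idh3b on the opposite strand, and Idh3b was called lower (-0.59, limma adjusted p = 0.0319). The strand setting of the counting is not given in the sources used here, so how reads of that overlap were counted is not known.

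In the processome 14 of 23 genes were positive (median 0.04). The groups did not overlap in 7 on the higher side (17.2% of all tested genes) and 1 on the lower (15.4%). Heatr1 (ENSMUSG00000050244, chromosome 13, 12395027 to 12440289, plus strand) had 424, 442 and 331 normalized counts in tumour mice against 282, 232 and 282 in PBS mice. The groups did not overlap, and the log2 fold change was 0.58 (SE 0.17) with a limma adjusted p of 0.0531. It was called by edgeR (0.60, adjusted p = 0.0449) and by DESeq2 (0.59, adjusted p = 0.0179), which called 887 and 1195 of all tested genes higher. Heatr1 shares exon bases with Lgals8 on the opposite strand, whose mean normalized count was 1930 against 345 for Heatr1. Lgals8 had a log2 fold change of 0.01 (limma adjusted p = 0.989), and how reads of that overlap were counted is not known. Rrp12 (ENSMUSG00000035049, chromosome 19, 41862851 to 41896173, minus strand), which in yeast takes part in export of the subunit precursors, had 180.1, 155 and 153 against 82.8, 72.2 and 134 (0.80, SE 0.28; adjusted p = 0.105). Mphosph10 had 328, 238 and 234 against 179.6, 159 and 228, a log2 fold change of 0.49 (95% interval 0.09 to 0.90; adjusted p = 0.133). In both genes PBS replicate 12b was the nearest to the tumour mice. Utp14b had 71.9, 93.1 and 87 against 39.2, 50.5 and 48.1 (0.86; adjusted p = 0.164). It lies inside Acsl3 on the same strand (log2 fold change of Acsl3 0.31, adjusted p = 0.532) and resembles Utp14a (-0.12), so its reads are uncertain. On the lower side Imp3 had 319.9, 397 and 367 against 445, 417 and 427 (-0.25; adjusted p = 0.47). Utp3, known in yeast as Sas10, had 396, 391 and 383 against 389, 483 and 449.5 (-0.17; adjusted p = 0.546), and its lowest PBS mouse lay within the tumour range. Utp6, Utp11 and Rrp36 had -0.15, -0.09 and -0.05.

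Large-subunit genes were positive in 7 of 9 cases (median 0.18). Rrp1b (ENSMUSG00000058392, chromosome 17, 32036100 to 32062865, plus strand), a paralog of Rrp1, had 176, 126 and 122 normalized counts in tumour mice against 102, 65.9 and 85.4 in PBS mice. The groups did not overlap, and the log2 fold change was 0.74 (SE 0.28; limma adjusted p = 0.127). Rrp1 itself had 0.12, Nop2 0.28 (347, 369 and 334 against 305, 243 and 321), Nol9 0.29 and Rrp15 0.26. Nop53 had 1220.5, 1244 and 1329 against 1682, 1575 and 1412, lower in every tumour mouse, with a log2 fold change of -0.30 (adjusted p = 0.388). PeBoW genes had 0.15 (Wdr12), 0.09 (Bop1) and 0.01 (Pes1).

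Among the 5 RNA polymerase I subunits, 2 had every tumour mouse above the PBS mice, as had 17.2% of all tested genes. Polr1a (ENSMUSG00000049553, chromosome 6, 71909053 to 71984935, plus strand) had 413, 369 and 439 normalized counts in tumour mice against 329.5, 277 and 329.6 in PBS mice. Its log2 fold change was 0.38 (SE 0.15; limma adjusted p = 0.153), and that of Polr1e was 0.35 (87.2, 83.1 and 81.7 against 57.5, 62.4 and 78.1). Polr1d had every tumour mouse below the PBS mice (-0.17), and Polr1b and Polr1c had 0.08 and -0.10. Of the phosphoproteins, Ncl had 3339, 2822 and 2849 against 2926, 2346 and 2366 (0.24, 95% interval -0.13 to 0.62) and Npm1 2165, 1691 and 1681 against 1643, 1629 and 1621 (0.17, -0.20 to 0.54). For Npm1 the PBS mice were nearly equal and replicate 7 was far above the other tumour mice. Nolc1 had 0.43 without overlap. In the box H/ACA group Dkc1 had 225, 223 and 226 against 250.2, 240.3 and 222 (-0.08), Nop10 559, 569 and 649 against 672, 659 and 644 (-0.16), Gar1 0.45 and Nhp2 0.18. Nol7 was lower in every tumour mouse, with 507, 530.4 and 551 against 553, 605 and 586 (-0.13; adjusted p = 0.56).

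**Figure D3:**
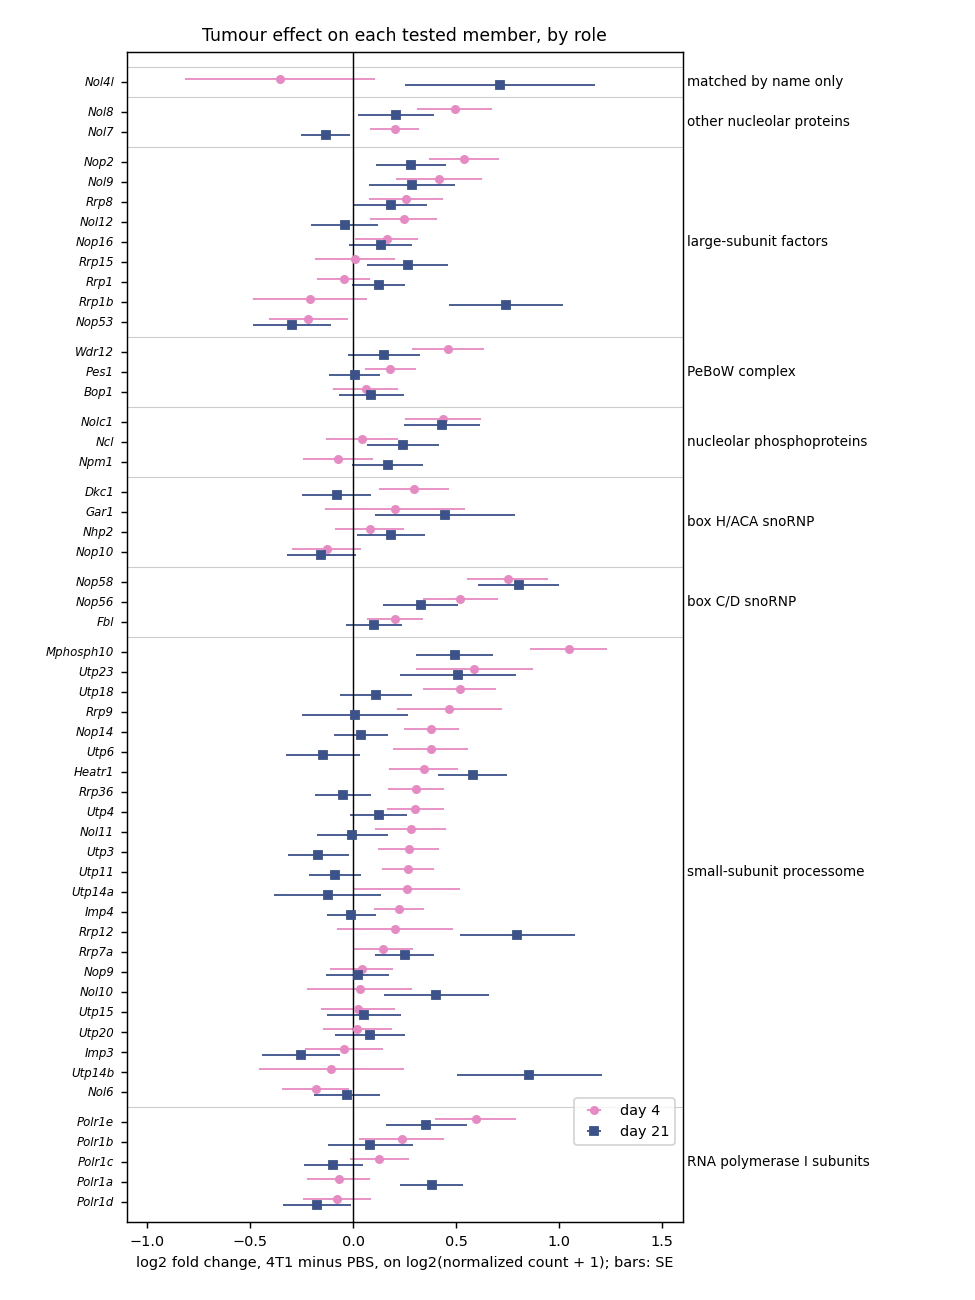
Log2 fold change of tumour against PBS (on log2 of the normalized count + 1) for the 53 tested genes by role, at day 4 (circles) and day 21 (squares), with SE as bars. Most day 4 circles of the processome lie right of 0, with Mphosph10 at 1.05, and the day 21 squares are spread around it.

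Whether the tumour effect differed between the days was tested as the difference of the day 21 and day 4 effects. None of the 53 genes was called (0.641% of all tested genes were called higher and 0.0475% lower), 1 had an unadjusted p under 0.05 on the higher side and 0 on the lower (9.13% and 4.22%), and edgeR and DESeq2 called 0 members. The median difference was -0.09 against 0.04 over all tested genes, with 19 positive of 53 against 53.2%. Rrp1b had a difference of 0.95 (95% interval 0.11 to 1.80; limma adjusted p = 0.309) and Polr1a 0.45 (-0.02 to 0.92; 0.393). Mphosph10 had -0.55 (-1.13 to 0.02; 0.393) and Utp3 -0.44 (-0.89 to 0.01; 0.39). For Nop58 the effects were close to each other, with a difference of 0.05 and an interval of -0.54 to 0.65. By role, the median difference was -0.21 in the processome and -0.08 in the large-subunit genes. Without tumour day 4 replicate 1 the median over the 53 genes was -0.015.

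In PBS mice, day 21 against day 4 covers the same interval without a tumour. None was called (0% of all tested genes in either direction), 0 had an unadjusted p under 0.05 on the higher side and 1 on the lower (1.88% and 2.11%), and DESeq2 and edgeR called 0 members. The median was -0.03 against -0.01, and 24 of 53 were positive (48.1% of all tested genes). In Polr1e and Nol4l every mouse of day 21 lay above every mouse of day 4 (5.44% of all tested genes), and in Polr1a below (4.51%). Polr1a was lower in each PBS mouse of day 21, 329.5, 277 and 329.6 against 423, 428 and 334 at day 4 (-0.33; limma adjusted p = 0.938). For Nop10 the log2 fold change was -0.30 (95% interval -0.66 to 0.06), for Mphosph10 0.30 (-0.11 to 0.70) and for Nol4l 0.77 (-0.23 to 1.76). The PBS mice of day 4 used here are the controls of the day 4 comparison, so a low PBS value there enters both. Marker sums of some other cells also differed between the PBS groups. Those of Kupffer cells were 43.6 to 135.3 RPM at day 4 and 149.5 to 235.7 at day 21. Sums of sinusoidal endothelium were 62.9 to 134.8 and 167 to 230.1, and of stellate cells 38.7 to 118.4 and 131.9 to 199.5. The hepatocyte and neutrophil sums overlapped. The part of these differences in the PBS values was not tested.

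Tumour mice of day 21 against those of day 4 share their libraries with the comparisons above. Here 1 gene was called higher, Nol4l (10.5% of all tested genes were), and 0 lower (4.71%), in edgeR and DESeq2 too. Nol4l had 29.1, 13.3 and 16 normalized counts at day 21 and 5.09, 3.68 and 4.68 at day 4 (1.83, SE 0.46; limma adjusted p = 0.0203), with replicate 7 highest. It entered the test only through its day 21 tumour values (means of 4.48 and 19.5 at day 4 and day 21), so the call is no support for a change among the members. The counts behind it are few, the call was lost without tumour day 4 replicate 3 or tumour day 21 replicate 7, and it is not a ribosome factor. Of the 53 genes 14 were positive (50.6% of all tested genes) and the median was -0.08 against 0.01. At an unadjusted p under 0.05, 3 were higher (17.9%) and 0 lower (11.7%). In 12 genes every mouse of day 21 lay below every mouse of day 4 (15.2%), and in 2 above (17.7%). Those below were Nop10, Nol7, Utp3, Utp11, Utp4, Utp6, Nop14, Dkc1, Utp18, Imp4, Nol8 and Wdr12, of which 7 belong to the processome. Nol8 had 226, 256 and 233 against 316, 333 and 259.7 (-0.34; adjusted p = 0.245) and Nop10 559, 569 and 649 against 838, 718 and 679 (-0.33; adjusted p = 0.214). Utp14b was above, with 71.9, 93.1 and 87 against 24.4, 62.6 and 62 (0.86; adjusted p = 0.123). Without tumour day 4 replicate 1, 25 of 53 were positive and the median was -0.01.

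Library by library, the median deviation of the 53 genes from the mean of the 6 PBS libraries was 0.28, 0.10 and 0.15 on the log2 scale in tumour mice of day 4, against 0.05, -0.05 and -0.01 in their PBS mice. The tumour mice were thus the higher at day 4, replicate 1 most. At day 21 it was 0.11, 0.17 and 0.07 in tumour mice against -0.04, -0.04 and 0.14 in the PBS mice, so the groups overlapped. Box C/D genes gave 0.58, 0.36 and 0.43 in tumour mice against 0.20, -0.09 and -0.09 in PBS mice at day 4, and 0.55, 0.31 and 0.29 against -0.10, -0.03 and 0.20 at day 21, apart at both days. The processome was apart at day 4 (0.22, 0.26 and 0.20 against 0.05, -0.16 and 0.06) and overlapped at day 21 (0.07, 0.17 and 0.00 against -0.04, -0.06 and 0.17). The median over all tested genes was between -0.02 and 0.01 in every library, where the division by size factors keeps it near 0.

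**Figure D4:**
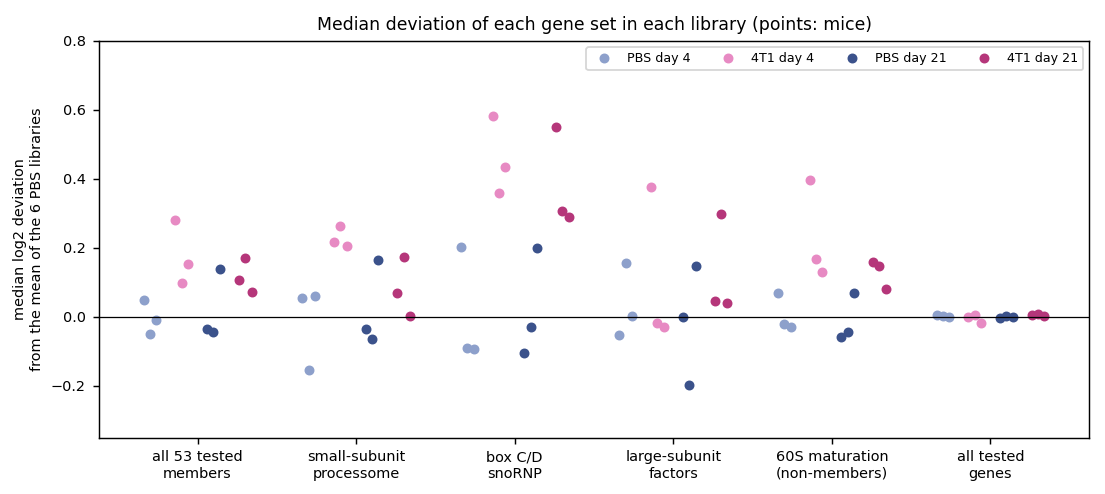
Median log2 deviation of 6 gene sets from the mean of the 6 PBS libraries, 1 point per mouse. Medians of the 3 box C/D genes lie at 0.29 to 0.58 in tumour mice, above every PBS mouse. The median of all tested genes is kept near 0 by the division by size factors.

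Within groups the genes were steady. The median within-group SD was 0.204 on the log2 scale, against 0.231 in 4873 tested genes of like level and 0.282 over all tested genes, with Imp4 the steadiest at 0.102 and Utp14b the least at 0.456. As a description, deviations from the group means had a mean pairwise Pearson correlation of 0.117 among the 53 genes over the 12 libraries. It was 0.00259 over all tested genes, which are not matched for level. The roles differed: 0.532 in the phosphoproteins, 0.349 in large-subunit genes, 0.311 in box C/D, 0.126 in the processome and 0.125 in PeBoW. It was 0.0812 in box H/ACA and -0.0332 in RNA polymerase I subunits. These points share libraries and their depth.

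Other genes of the pathway were followed in 6 lists that hold none of the 54 genes. At day 4, positive log2 fold changes numbered 38 of 43 large-subunit maturation genes (median 0.20), 26 of 31 further small-subunit genes (0.20), 11 of 13 RNA exosome genes (0.18), 13 of 19 other genes of RNA polymerase I transcription (0.06), 12 of 19 of RNA polymerase III and its particle (0.08) and 4 of 10 of the MYC network (-0.20), and 0 were called. Rrs1, which loads ribosomal proteins on the large-subunit precursor in yeast, had 407, 341 and 319 in tumour mice against 179.8, 281 and 215 in PBS mice (0.67; limma adjusted p = 0.776). Nob1, the nuclease that finishes the small-subunit RNA, had 0.61, and Ngdn and Ftsj3 0.40 and 0.50. Myc, the transcription factor known to drive such genes, had 772, 35.6 and 35.1 in tumour mice against 353, 790.2 and 314 in PBS mice (-2.14; adjusted p = 0.815). Tumour replicate 1 was thus at the level of the highest PBS mouse and the other tumour mice far below.

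At day 21 the same lists had 32 of 43, 24 of 31, 8 of 13, 14 of 19, 8 of 19 and 5 of 10 positive. Of the 135 list genes 1 was called higher (0.741%, against 5.42% of all tested genes) and 2 lower (1.48%, against 2.44%), so neither share exceeded that over all genes. Called were Rcl1, a nuclease of the small-subunit precursor in yeast, lower at 1011, 1307 and 1285 against 1721, 2436 and 1919.8 (-0.75; limma adjusted p = 0.0147), Mycl, lower at 78.3, 121 and 84.7 against 167, 210.2 and 178 (-0.98; 0.0364), and Mxd1, a MYC antagonist, higher at 902, 353 and 226 against 138, 109 and 108 (1.82; 0.0141). Mxd1 was highest in replicate 7, the library with the most neutrophil RNA (6406 RPM of its markers), and the part of that RNA was not tested. Mycn, uncalled, had the largest log2 fold change of the MYC network list at day 21 (3.01). It was higher in tumour mice, at 109, 96.4 and 34.35 against 6.97, 4.2 and 16.35. Between the tumour groups 7 of the 135 list genes were called lower at day 21 (5.19%, near the 4.71% of all tested genes), among them Emg1 (-0.45; adjusted p = 0.0203), Nmd3 (-0.58; 0.0176), Rcl1 (-0.61; 0.0245) and C1d (-0.41; 0.04), and 1 (Mxd1) was called higher (0.741%, against 10.5%).

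The members also share features that the names did not use. By the GENCODE M21 annotation 5 of 53 (9.43%) hold snoRNA genes within them on the same strand, against 1.74% of 12624 tested genes. Nop56 holds 5, Nop58 4 (Snord11 and Snord70 among them), Ncl 3, Dkc1 1 and Nop53 1. Their median log2 fold change was 0.295 at day 4, with 4 of 5 positive, and 0.204 in the other 48, with 38 positive. At day 21 the medians were 0.242, with 3 of 5 positive, and 0.117, with 34 of 48. Genes with the ETS core in a start window were positive at day 4 in 16 of 16 cases (median 0.286), and those with a window but no core in 20 of 28 (0.172). At day 21 the counts were 11 of 16 (0.223) and 21 of 28 (0.103). For the E-box they were 8 of 9 (0.223) and 28 of 35 (0.235) at day 4, and 7 of 9 (0.111) and 25 of 35 (0.149) at day 21. These splits carry no test and were drawn up with the fold changes known. Exon bases shared with another gene of the table occurred in 15 of the 54, on the opposite strand in 14.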

How the data were processed

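RNA of hepatocytes from 12 mice was sequenced after poly(A) selection, per the labels' protocols. Per the submitters' processing notes, cutadapt, STAR 2.4.2a, HTSeq and DESeq2 were used with GRCm38. The authors deposited 1 table of gene counts divided by a size factor per library, a normalized signal without length correction. A fixed step underlies the values of each library, and dividing by it gave whole reads (within 0.1) for at least 99.9937% of values in each library. The strand setting is not given in these sources.

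Genes with a mean of at least 10 over the 12 libraries (12631) were taken to log2(value + 1) and fitted with limma 3.58.1 in R 4.3.3 (lmFit, eBayes with trend and robust), 1 mean per group. Benjamini-Hochberg adjustment ran over all tested genes, with calls made at an adjusted p under 0.05. Mice were the replicates. Intervals are 95%. Fold changes on this scale understate those of low genes. Alternatives were pseudocounts of 0.5 and 5, no filter or a mean of 50, only the groups compared, TMM scaling, edgeR 4.0.16 (quasi-likelihood), DESeq2 1.42.0 on recovered reads, and leaving out each library. The procedure was tested on simulated data.

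The 54 genes and the lists were chosen with earlier results of these data known. Named genes were Mphosph10, Polr1a, Fbl, Dkc1, Ncl and Npm1, the 4 with the smallest p each way for tumour against PBS at each day, the 2 each way in the other comparisons, and up to 2 per list. Other genes are given by log2 fold change or count. Positions and lengths are from GENCODE M21, in which 15897 of 15910 identifiers matched, and start sequences from RefSeq (GRCm38.p6), shortened where over 30 bases lay in a GENCODE exon.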

Additional observations from a re-analysis of the deposited data

How the results depend on the processing

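Summary counts were judged by their ratio to the main count, and medians by the spread of the library medians (SD 0.0776 on the log2 scale). With no library left out, 151 summary values stayed close to the main value by these rules and 6 moved. The genes called higher at day 21 numbered 1, and 2 in edgeR and in DESeq2 (Nop58 and Heatr1) and 0 with only the groups of the comparison. Of all 12631 tested genes, 684 were called higher in the main fit, 887 in edgeR, 1195 in DESeq2 and 479 with only those groups. At day 4 the count was 0, and 1 in DESeq2 (Mphosph10), where 1 of all tested genes was called higher. Between the tumour groups it was 1 (Nol4l), and 0 with a mean of at least 50, which leaves Nol4l out, or with only the groups compared. Over all tested genes the counts there were 1326, 602 and 448. The cause of the other moves was not tested.

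Leaving out each library in turn, 224 summary values stayed and 16 moved. The count called higher ranged from 0 to 2 at day 21, was 0 throughout at day 4, and ranged from 0 to 1 between the tumour groups. Over all tested genes it ranged from 300 to 717 at day 21 and from 589 to 1565 between the tumour groups. Genes with an unadjusted p under 0.05 on the higher side ranged from 7 to 14 at day 4 and from 3 to 8 at day 21, where PBS day 21 replicate 11a gave 3. Over all tested genes, in either direction, they ranged from 426 to 1121 at day 4 and from 1902 to 3054 at day 21. Positive log2 fold changes ranged from 36 to 45 at day 4, 32 to 40 at day 21 and 10 to 25 between the tumour groups. Medians ranged from 0.156 to 0.264 at day 4, 0.089 to 0.177 at day 21 and -0.164 to -0.015 for the difference of the effects. Heatr1 was called at day 21 without PBS day 4 replicate 4 or 5 or tumour day 21 replicate 9a.

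Uncalled day 4 log2 fold changes that turned sign were those of Ncl (range -0.053 to 0.208, negative without tumour day 4 replicate 1 and, at -0.034 and -0.045, PBS day 4 replicates 5 and 6), Nop10 (-0.272 to 0.075, positive without PBS day 4 replicate 5), Nop53 (-0.407 to 0.003, positive without tumour day 4 replicate 2), Npm1 (-0.245 to 0.065, positive without PBS day 4 replicate 4 and, at 0.004, tumour day 4 replicate 3) and Polr1a (-0.185 to 0.056, positive without tumour day 4 replicate 2). No paired analysis was possible because the groups share no replicate numbers. Depth limits Nol3 and Nol4l, which had as few as 2 and 3 reads in a library, and 3 mice per group limit small differences.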
